A study of Mus musculus with 8 samples.

Results

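The genes described here are 8 that serve potassium secretion and the tissue barrier in the stria vascularis: Kcnq1, Kcne1, Slc12a2, Atp1b2, Bsnd, Esrrb, Kcnj10 and Cldn11. They were chosen by symbol, and each was read from the probe sets that the array annotation gives to it alone, 14 in all, out of 18193 genes measured. Each of 8 arrays read the RNA of organ of Corti, the hearing epithelium of the inner ear, dissected on postnatal day 16. A sample held the pooled basal or the pooled apical segments from both ears of 1 mouse. The groups were cKO base, control base, cKO apex and control apex, with 2 samples each. cKO mice carried Atoh1-Cre and 2 floxed Dicer1 alleles (Atoh1-Cre;Dicer1 flox/flox), and the littermate controls carried the same Cre with 1 floxed and 1 wild-type allele (Atoh1-Cre;Dicer1 flox/wt). Atoh1-Cre acts in hair cells, and the controls carry it too, so every mouse had the Cre and at least 1 floxed allele. The alleles were Dicer1tm1Bdh and Tg(Atoh1-cre)1Bfri. DICER1 cuts microRNA precursors into their mature form. The samples were not selected for strial cells. The apical and basal samples of 1 genotype and number were taken as 1 presumed mouse, of which there were 4.

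The stria vascularis is a layered epithelium in the lateral wall of the cochlea that fills the endolymph with potassium and holds it at a positive potential. Its marginal cells take up potassium from the inner strial space through the sodium pump and the sodium-potassium-chloride cotransporter NKCC1, and release it into endolymph through the channel formed by KCNQ1 and KCNE1. Chloride returns across the marginal cell membrane through channels that need barttin. Pigmented intermediate cells carry the potassium channel KCNJ10, which sets up the endocochlear potential, and basal cells seal the layer with tight junctions of claudin 11. The stria lies beside the organ of Corti and not within it. In whole tissue, fewer cells of a type and less RNA per cell cannot be told apart.

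Before the results, 1 array needs description, since it touches most of them. Control base replicate 1 had the lowest signal of the 4 basal samples for all 8 genes, and none of the 8 was above its own mean over the arrays there. In cKO base, 7 and 8 of the 8 genes were above their own means in replicates 1 and 2, and in control base replicate 2 all 8 were. Dct, the melanin enzyme dopachrome tautomerase of strial pigment cells, had log2 signals of 13.91 and 13.65 in cKO base, 5.96 and 13.88 in control base, 6.91 and 9.36 in cKO apex, and 11.87 and 6.19 in control apex (replicates 1 and 2 of each group, as in all such lists below). Control base replicate 1 was thus low in Dct as well. Xist, which female cells transcribe, had log2 signals of 12.39 and 12.54 in the base and the apex of control mouse 1, against 8.23 or less on the other 6 arrays, so sex is tied to this mouse. Tectb, which encodes beta-tectorin, was at 6.38 and 8.71 in cKO base, 5.71 and 7.93 in control base, 13.28 and 13.48 in cKO apex, and 12.52 and 13.44 in control apex, lower in every basal than in every apical sample. Dicer1 had log2 signals of 9.04 to 9.57 on the 8 arrays, and whether its probes lie in the floxed part is not known. Markers of the labelled tissue were measured on every array, with 10 of 12 hair cell and 10 of 10 supporting cell markers on the array and summed signals of 4339 to 8888 and 11270 to 43440.

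**Figure D1:**
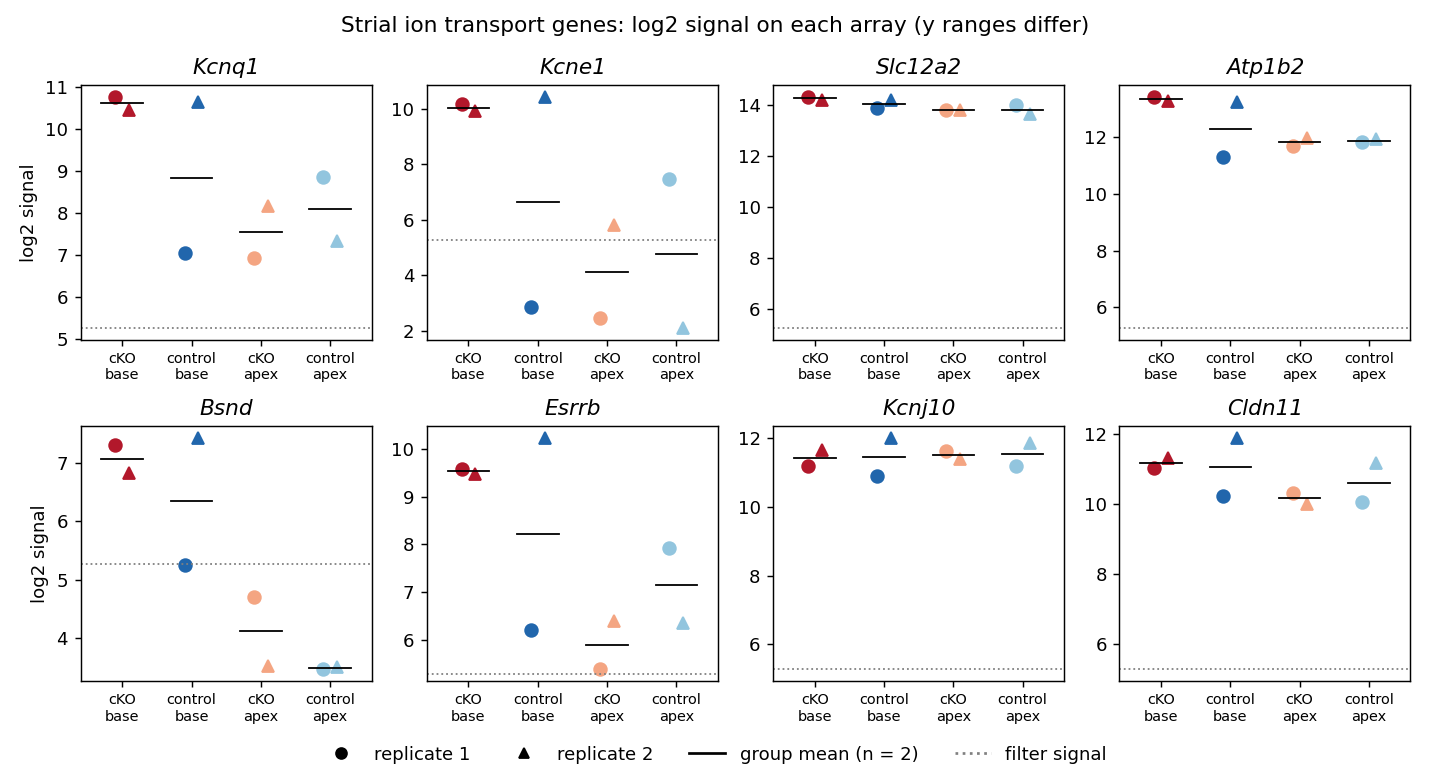
Log2 signal of each gene (y axis, its range differs between panels) in the 4 groups (x axis), with replicate 1 as a circle, replicate 2 as a triangle, the group mean as a bar and the filter signal of 5.274 as a dotted line. Control base replicate 1 lies below the other 3 basal samples in every panel, by the widest gap for Kcne1 (2.85, which is under the filter signal, against 9.92 to 10.45).

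The apical potassium channel of the marginal cell is built from Kcnq1 and Kcne1, and the spread of Kcne1 over the arrays was the widest of the 8 genes, in part through values under the filter signal. Kcnq1, its pore-forming subunit, had log2 signals of 10.77 and 10.45 in cKO base, 7.05 and 10.64 in control base, 6.93 and 8.16 in cKO apex, and 8.86 and 7.33 in control apex. Kcne1, the accessory subunit that slows the channel's gating, was at 10.19 and 9.92 in cKO base, 2.85 and 10.45 in control base, 2.44 and 5.80 in cKO apex, and 7.47 and 2.10 in control apex. For both genes 3 of the 4 basal samples were high and close together, while control base replicate 1 lay among the apical samples. On the linear scale Kcne1 ran from a signal of 4.29 to 1401, and 3 of its 8 values were under the filter signal of 38.71, below which genes were not tested. Its second probe set gave the same order of high and low groups, with 10.62 and 10.26 in cKO base, 1.32 and 11.05 in control base, 1.13 and 6.30 in cKO apex, and 8.17 and 1.15 in control apex. The 2 genes followed each other over the 8 arrays (Pearson r = 0.983), given as a description of arrays that come from 4 presumed mice.

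Of the basolateral uptake genes, Atp1b2 followed the channel and Slc12a2 moved little. Atp1b2, a beta subunit of the sodium pump, had log2 signals of 13.43 and 13.28 in cKO base, 11.31 and 13.23 in control base, 11.67 and 11.98 in cKO apex, and 11.81 and 11.93 in control apex. Again 3 basal samples stood above all 4 apical ones, and control base replicate 1 was the lowest of the 8 by this probe set. A dimmer probe set of Atp1b2 was at 6.70 and 6.505 in cKO base and 4.44 and 7.18 in control base. In the apex that probe set was at 3.54 and 6.45 in cKO and 5.78 and 6.29 in control. There cKO apex replicate 1 was the lowest, and base minus apex in control was -0.23, against 0.40 by the brighter one. Slc12a2, which encodes NKCC1, was at 14.32 and 14.20 in cKO base, 13.88 and 14.19 in control base, 13.79 and 13.81 in cKO apex, and 13.97 and 13.63 in control apex by its brightest probe set. Those values span 0.69 on the log2 scale. Slc12a2 has 2 dimmer probe sets that gave wider spans: one was at 13.35 and 13.11 in cKO base, 12.20 and 12.75 in control base, 11.64 and 11.76 in cKO apex, and 12.18 and 11.72 in control apex. Base minus apex in cKO was 0.46 by the brightest probe set and 1.53 and 1.60 by the dimmer ones, so the size of its regional difference depended on the probe set. With the mean of its probe sets, Slc12a2 was 0.82 higher in base over both genotypes and passed the threshold of 0.05 (limma adjusted p = 0.0369). NKCC1 is also made by fibrocytes of the spiral ligament, and summed fibrocyte markers (9 of 9 measured) were at 134300 to 155700 in cKO base, 118100 to 132200 in control base, 118800 to 128100 in cKO apex, and 99590 to 113300 in control apex. Their part in the Slc12a2 values was not tested.

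Bsnd, which encodes the chloride channel subunit barttin, was the faintest of the genes. Its log2 signals were 7.31 and 6.83 in cKO base, 5.25 and 7.43 in control base, 4.70 and 3.52 in cKO apex, and 3.46 and 3.50 in control apex. All 4 basal samples lay above all 4 apical samples, although control base replicate 1 was itself just under the filter signal, and it was the only gene of the 8 for which this held, where 5.96% of all tested genes were higher in all basal samples. It was above the filter signal on 3 arrays and its mean of 5.252 was just under the limit of 5.274, so it was not among the 7 of 8 genes that were tested. With no filter it gave base minus apex over both genotypes of 2.91 ± 0.54 (log2, SE, limma adjusted p = 0.0678). With values under the filter signal taken at it, Bsnd was 3.47-fold higher in base than in apex in cKO and 2.11-fold higher in control.

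Esrrb encodes an orphan nuclear receptor that directs the marginal cell programme of ion transport. It had log2 signals of 9.58 and 9.48 in cKO base, 6.21 and 10.24 in control base, 5.38 and 6.39 in cKO apex, and 7.92 and 6.36 in control apex. As for the channel, 3 basal samples were high, and control apex replicate 1 was the highest of the apical samples. Its profile over the 8 arrays was close to that of Kcnq1 (r = 0.978) and Kcne1 (r = 0.953). A second probe set gave 8.58 and 9.01 in cKO base, 4.98 and 9.39 in control base, 6.58 and 6.54 in cKO apex, and 7.79 and 6.33 in control apex. Another, dimmer one had smaller steps, at 6.59 and 6.63 in cKO base, 4.96 and 7.08 in control base, 6.11 and 4.97 in cKO apex, and 5.78 and 6.13 in control apex.

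The genes of the other strial layers did not share this pattern in full. Kcnj10, the intermediate cell potassium channel Kir4.1, which glia and supporting cells of the cochlea also make, was at 11.20 and 11.67 in cKO base, 10.91 and 12.02 in control base, 11.62 and 11.40 in cKO apex, and 11.20 and 11.88 in control apex. Its groups overlapped in every comparison, and its group means lay within 11.44 to 11.54. Cldn11, the claudin of the basal cell tight junction, was at 11.03 and 11.33 in cKO base, 10.23 and 11.90 in control base, 10.32 and 10.01 in cKO apex, and 10.05 and 11.18 in control apex. In controls replicate 2 exceeded replicate 1 in both regions for Kcnj10 (by 1.11 in the base and 0.68 in the apex) and for Cldn11 (by 1.67 and 1.12). For Kcnq1 and Esrrb the sign differed between the regions in controls, with replicate 2 minus replicate 1 at 3.58 and 4.03 in the base and at -1.53 and -1.57 in the apex.

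RefSeq promoter sequences on GRCm38.p6 were found for 3 of the 8 genes, 1 from each strial layer, with 2 start sites for Esrrb. They are shown because no promoter entry was found for the other genes, and their link to the signals was not tested. Each line holds the 250 bases before a start site, 5′ to 3′ on the + strand, at chr1:172340960-172341209 for Kcnj10, chr3:31149670-31149919 for Cldn11, and chr12:86360867-86361116 and chr12:86421394-86421643 for Esrrb. Capitals mark matches on either strand to any of 5 motifs searched: the core of the oestrogen-related receptor element AAGGTCA, the M-box core CATGTG, the E-box CACGTG, the GC box GGGCGG and the TATA box TATAAA.
Kcnj10: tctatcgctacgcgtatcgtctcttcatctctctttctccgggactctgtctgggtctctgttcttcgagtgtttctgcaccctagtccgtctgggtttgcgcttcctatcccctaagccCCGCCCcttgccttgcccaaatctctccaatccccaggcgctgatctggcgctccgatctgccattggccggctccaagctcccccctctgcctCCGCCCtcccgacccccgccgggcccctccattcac
Cldn11: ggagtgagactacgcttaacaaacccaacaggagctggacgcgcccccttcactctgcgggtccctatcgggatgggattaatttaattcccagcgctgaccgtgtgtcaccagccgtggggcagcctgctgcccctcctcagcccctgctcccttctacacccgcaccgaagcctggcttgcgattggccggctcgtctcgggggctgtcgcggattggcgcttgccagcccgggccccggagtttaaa
Esrrb, first start site: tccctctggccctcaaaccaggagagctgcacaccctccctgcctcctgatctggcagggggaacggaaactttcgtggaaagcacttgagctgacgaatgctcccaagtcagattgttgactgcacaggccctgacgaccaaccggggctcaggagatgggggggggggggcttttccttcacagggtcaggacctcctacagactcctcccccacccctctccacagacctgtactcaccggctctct
Esrrb, second start site: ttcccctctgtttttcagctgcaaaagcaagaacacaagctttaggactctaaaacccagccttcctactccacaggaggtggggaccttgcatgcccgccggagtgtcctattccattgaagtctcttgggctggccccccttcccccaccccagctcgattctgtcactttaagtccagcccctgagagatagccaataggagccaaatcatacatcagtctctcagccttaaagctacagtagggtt
The only matches were 2 GC boxes of Kcnj10, both read on the opposite strand and beginning 130 and 36 bases before the start. Over all 32851 promoters of the table, 32.7% of such windows hold a GC box, 4.08% AAGGTCA, 12.3% CATGTG, 6.02% CACGTG and 12.4% TATAAA. The GC content of the windows was 62.0% for Kcnj10, 63.6% for Cldn11, and 60.8% and 52.0% for Esrrb, against a median of 52.4% over all promoters. In the same order the windows held 17, 19, 6 and 3 CG pairs, against a median of 6 over all promoters.

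In cKO the genes differed more between base and apex than in the other comparisons, by the median over the 8. There 7 of the 8 genes were higher in both basal samples than in both apical samples, all but Kcnj10, where 23.2% of all tested genes were higher without overlap. Esrrb was 12.55-fold higher in base (log2 difference 3.65 ± 1.17, SE), Kcnq1 8.38-fold (3.07 ± 1.08) and Atp1b2 2.89-fold (1.53 ± 0.52). The dimmer probe sets of Esrrb gave log2 differences of 2.24 and 1.07, so the size for Esrrb depended on the probe set. Cldn11 was 2.02-fold higher (1.01 ± 0.55) and Slc12a2 1.38-fold (0.46 ± 0.15). Kcne1 differed by 5.93 ± 2.58, which is 22.9-fold with low values taken at the filter signal, and Kcnj10 by -0.08 ± 0.38. None of the 7 tested genes passed the limma threshold of 0.05 with all 8 arrays in the fit (smallest adjusted p = 0.295, for Esrrb), and 0.0832% of all 13221 genes did. The pooled spread in that fit includes the control arrays. With the presumed mouse as a block, 0 genes of all passed. When cKO samples alone were fitted, 5 of the 7 passed: Esrrb (limma adjusted p = 0.00404), Atp1b2 (adjusted p = 0.00469), Kcnq1 (adjusted p = 0.00786), Kcne1 (adjusted p = 0.0172) and Cldn11 (adjusted p = 0.0326), where 1.93% of all tested genes passed as higher. Slc12a2 missed it in that fit with an adjusted p of 0.069 and Kcnj10 with 0.882. The cKO fit holds 2 samples a group, leaves out the presumed mouse pairing and called 449 genes of all, so it is no second test. The median over the 8 genes was 2.24, against -0.02 over all tested genes. Other cell types shifted in the same fit: 7 of 11 intermediate cell markers and the bone markers Ctsk and Ibsp, of 5, passed as higher in base, and 6 of 9 hair cell and 5 of 10 supporting cell markers passed as lower, where 1.47% of all tested genes did. Their part in the values of the 8 genes was not tested.

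In controls 1 of the 8 genes, Bsnd, was higher in both basal samples, where 17% of tested genes were, and the comparison depended on the mouse. In cKO mice 1 and 2, base minus apex was 3.85 and 2.29 for Kcnq1, 4.21 and 3.09 for Esrrb, and 1.76 and 1.30 for Atp1b2. In control mouse 1 it was -1.81 for Kcnq1, -1.72 for Esrrb and -0.50 for Atp1b2, and in control mouse 2 it was 3.31, 3.88 and 1.29. For Kcne1, with values under the filter signal taken at it, the difference was 4.91 and 4.12 in cKO mice and -2.19 and 5.18 in control mice, the size being a bound except in cKO mouse 2. Control mouse 1 was the only one of the 4 in which these genes were lower in base. Slc12a2 shared that sign by a small amount, at -0.09 in control mouse 1 against 0.56 in control mouse 2, and 0.53 and 0.39 in cKO mice. Bsnd and Cldn11 were higher in base in all 4 mice, by 2.60 and 3.30 in cKO and 1.79 and 3.93 in control for Bsnd, whose apical values all, and both values in control mouse 1, were under the filter signal, and by 0.71 and 1.32 in cKO and 0.18 and 0.73 in control for Cldn11. Kcnj10 went both ways within each genotype, at -0.42 and 0.26 in cKO and -0.29 and 0.14 in control.

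**Figure D2:**
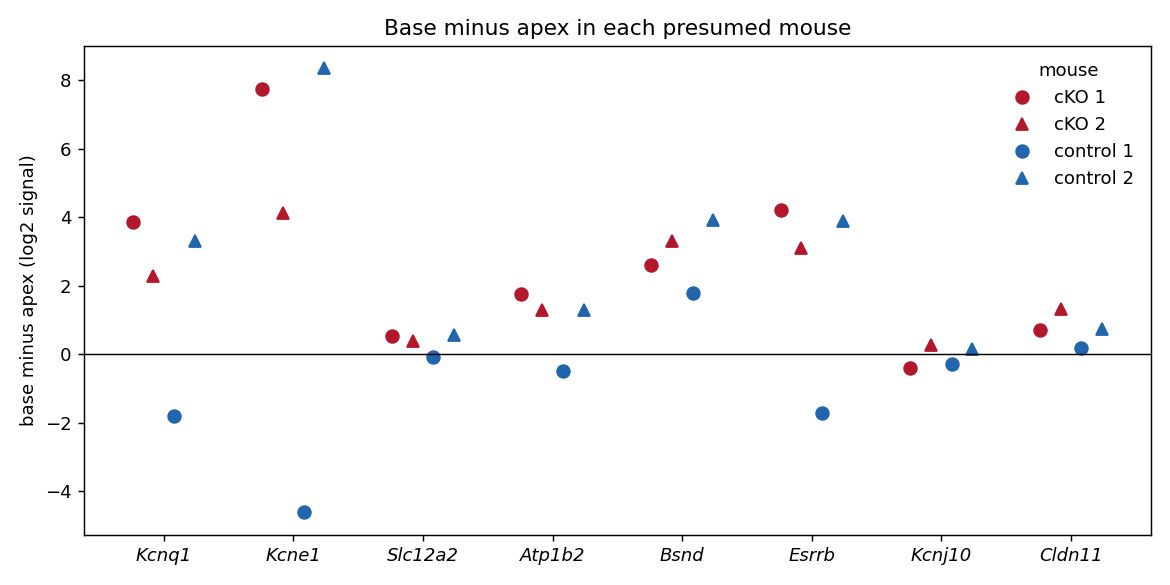
Base minus apex in log2 signal (y axis) for each gene (x axis) in the 4 presumed mice, with cKO in red and control in blue, mouse 1 as a circle and mouse 2 as a triangle. Control mouse 1 is below 0 for Kcnq1, Kcne1, Slc12a2, Atp1b2, Esrrb and Kcnj10, while for Bsnd and Cldn11 all 4 mice are above 0. The plotted Kcne1 and Bsnd values include signals under the filter, so their size is not exact.

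With all arrays, no tested gene of the 8 passed in controls alone (limma smallest adjusted p = 0.739) or over both genotypes together (smallest adjusted p = 0.174, for Slc12a2). In controls 0 of 13221 genes passed, with 994 at an unadjusted p under 0.05, and over both genotypes 157 did (1.19%). Base minus apex over both genotypes was 1.91 ± 0.76 for Kcnq1, 3.90 ± 1.82 for Kcne1, 2.37 ± 0.83 for Esrrb, 0.96 ± 0.37 for Atp1b2, 0.73 ± 0.39 for Cldn11, 0.35 ± 0.11 for Slc12a2 and -0.08 ± 0.27 for Kcnj10 (log2, SE). Without control base replicate 1, the estimates over both genotypes became 2.80 for Kcnq1, 5.80 for Kcne1, 3.37 for Esrrb, 1.44 for Atp1b2, 1.15 for Cldn11 and 0.43 for Slc12a2. Those 6 then passed the threshold, with limma adjusted p from 0.00154 for Atp1b2 to 0.0386 for Slc12a2, where 5.32% of all tested genes passed as higher. Kcnj10 was at 0.20 ± 0.20 (limma adjusted p = 0.548). In that setting the control base is 1 sample, whose spread is taken to be like that of the other groups, so the count shows how much 1 array weighs and is no second test. In controls alone 2 of the 7, Atp1b2 (1.35 ± 0.18, limma adjusted p = 0.0184) and Esrrb (3.10 ± 0.62, adjusted p = 0.0358), passed without it, where 1.41% of tested genes passed as higher.

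Between genotypes in the base, the estimates were large and the spread was as large. cKO minus control was 1.77 ± 1.08 for Kcnq1, 3.40 ± 2.58 for Kcne1, 1.31 ± 1.17 for Esrrb and 1.08 ± 0.52 for Atp1b2 (log2, SE). Slc12a2 gave 0.22 ± 0.15, Cldn11 0.11 ± 0.55 and Kcnj10 -0.03 ± 0.38, and Bsnd, not tested, 0.73. The dimmer probe sets of Slc12a2 gave 0.76 and 1.02, so its genotype difference in the base also depended on the probe set, and Kcne1 was 4.57-fold higher in cKO with low values taken at the filter signal. Group SDs of the log2 signal (n = 2) show where the spread lay: 0.23 in cKO base against 2.53 in control base for Kcnq1, 0.07 against 2.85 for Esrrb, and 0.10 against 1.35 for Atp1b2. None of the 7 passed (limma adjusted p = 1 for each), and 0 of 13221 genes did, with 413 at an unadjusted p under 0.05. Atp1b2 and Slc12a2 were the 2 of 8 genes whose cKO samples both lay above both control samples, Atp1b2 by 13.28 against 13.23 at the nearest pair, where 13.1% of tested genes did so. By the dimmer probe set of Atp1b2 the genotypes overlapped in the base, at 6.70 and 6.505 in cKO and 4.44 and 7.18 in control.

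Without control base replicate 1 the genotype estimates in the base turned below 0 or came closer to it, except that of Kcnj10, which was further below 0. They became -0.03 ± 0.65 for Kcnq1, -0.40 ± 1.97 for Kcne1, -0.71 ± 0.62 for Esrrb, -0.72 ± 0.41 for Cldn11 and -0.58 ± 0.31 for Kcnj10. Atp1b2 and Slc12a2 stayed above 0, at 0.13 ± 0.18 and 0.06 ± 0.16. The median over the 8 genes was 0.91 with all arrays and -0.38 without that one, and 0 genes passed in either fit. Without control base replicate 2, Atp1b2 alone of the 7 passed (2.04 ± 0.19, limma adjusted p = 0.0107), where 0.257% of tested genes passed as higher. The only control in that setting was the array low in all 8 genes and in Dct, from the female mouse. Genotype, sex and the level of strial transcripts cannot be told apart there.

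**Figure D3:**
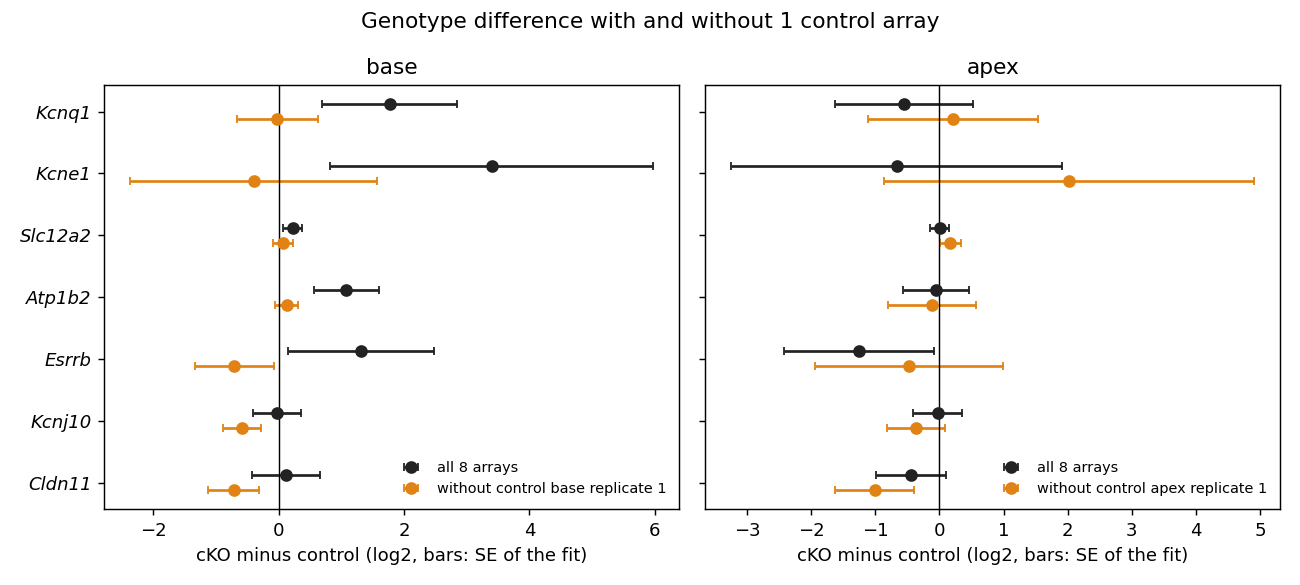
cKO minus control in log2 signal (x axis, bars are the SE of the limma fit) for the 7 tested genes (y axis) in the base (left panel) and the apex (right panel), with all 8 arrays in black and without replicate 1 of the control group of that region in orange. In the base, Kcnq1 is at 1.77 with all arrays and at -0.03 with that array left out, and Kcne1 at 3.40 and -0.40.

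In the apex the estimates of the tested genes were smaller than their errors, except that of Esrrb, which was slightly larger. cKO minus control was -0.55 ± 1.08 for Kcnq1, -0.66 ± 2.58 for Kcne1 and -1.26 ± 1.17 for Esrrb, with Atp1b2 at -0.05 ± 0.52, Slc12a2 at 0.00 ± 0.15, Cldn11 at -0.45 ± 0.55 and Kcnj10 at -0.03 ± 0.38 (log2, SE). The dimmer probe set of Atp1b2 gave -1.04, with cKO apex replicate 1 under the filter signal at 3.54. No gene of the 7 passed (limma adjusted p = 1 for each), nor did any of all 13221 (0 genes, 290 at an unadjusted p under 0.05). Only Bsnd had cKO samples that both lay above both controls, where 15% of tested genes did so, and all 4 of its apical values were under the filter signal. Control apex replicate 1 was the highest apical sample for Kcnq1, Kcne1, Esrrb and Slc12a2, and in Dct. Without it Kcnq1 gave 0.21 ± 1.33 and Kcne1 2.02 ± 2.89, so that both signs turned, while Esrrb gave -0.47. Over both regions, with 1 mean per mouse, Kcne1 gave 1.37 ± 0.64 and Kcnq1 0.61 ± 0.38, Atp1b2 0.52 ± 0.33, Slc12a2 0.11 ± 0.08, Cldn11 -0.17 ± 0.45, Esrrb 0.03 ± 0.45 and Kcnj10 -0.03 ± 0.31, and none passed (limma adjusted p = 0.999 for each, 0 genes of all, 319 at an unadjusted p under 0.05). None of the 8 had all cKO samples above all controls over both regions, where 1.61% of tested genes did.

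The difference of the genotype effect between base and apex was tested directly. It was 4.07 ± 3.64 for Kcne1, 2.57 ± 1.65 for Esrrb, 2.32 ± 1.52 for Kcnq1 and 1.14 ± 0.73 for Atp1b2, and between 0.00 and 0.56 for Cldn11, Slc12a2, Bsnd and Kcnj10. None of the tested genes passed (limma adjusted p = 1, 0 genes of all, 149 at an unadjusted p under 0.05). Without control base replicate 1 it was 0.27 for Kcne1, 0.55 for Esrrb, 0.53 for Kcnq1 and 0.18 for Atp1b2, and it turned below 0 for Kcnj10 (-0.56), Cldn11 (-0.27) and Bsnd (-0.99).

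Replicates of 1 group differed unevenly over these genes. In control base the replicates differed by a median of 2.05 over the 8 genes, against 0.34 over all tested genes, and 7 of the 8 differed by more than 1, where 14.3% of all tested genes did. In cKO base the median was 0.28 against 0.21, and none of the 8 differed by more than 1, where 3.31% of all tested genes did. The apical groups lay between, at 0.66 against 0.22 in cKO and 0.90 against 0.26 in control. In each, 4 of the 8 were above 1, where 3.35% of all tested genes were in cKO apex and 5.43% in control apex. Of these 4, Kcne1 and Bsnd in cKO apex rest on values under the filter signal. With such values taken at the filter signal, the control base replicates of Kcne1 differed by at least 5.18. For Slc12a2, 52.9% of tested genes had a larger difference in control base. Other genes differed as widely there: Tyr, the melanin enzyme tyrosinase, was at 2.89 and 10.17, and Slc45a2, a melanosome transporter, at 5.79 and 10.54.

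Some pigment cell transcripts followed part of the transport genes. A correlation with each of the 8 genes was computed for Dct alone, a reference chosen with earlier results of these data known. The correlation of each gene with Dct over the 8 arrays, which share their 4 presumed mice, was 0.991 for Kcne1, 0.975 for Kcnq1, 0.937 for Esrrb, 0.901 for Slc12a2 and 0.874 for Atp1b2. It was lower for Bsnd (0.661), Cldn11 (0.50) and Kcnj10 (0.166), although Kcnj10 is the one of the 8 that pigment cells carry. Control apex replicate 1 sets Bsnd apart from the channel: Dct was at 11.87 there and Kcne1 at 7.47, while Bsnd was at 3.46, no higher than in control apex replicate 2. Summed signals of the 13 intermediate cell markers, Kcnj10 among them, were 24420 to 27530 in cKO base, 6199 and 28420 in control base, 6915 to 8066 in cKO apex, and 8297 to 10680 in control apex, and 11 of the 13 passed the filter. Other genes of that list did not follow: Kcnj13, a potassium channel, was at 9.69 and 8.998 in cKO base, 7.57 and 8.87 in control base, 10.02 and 10.74 in cKO apex, and 9.34 and 10.50 in control apex. In the 2 control base replicates Kit, the receptor that melanocytes need, had log2 signals of 10.75 and 10.51, Tyrp1, a melanin enzyme under the filter, 5.74 and 2.23, and Oca2, a melanosome protein, 5.86 and 5.54. The summed signals of marginal cell markers (10 of 13 on the array) were 39270 to 44980 in cKO base, 22640 and 41150 in control base, 22540 to 25340 in cKO apex, and 22220 to 25590 in control apex. That list includes Kcnq1, Kcne1, Bsnd, Slc12a2, Esrrb and Atp1b2 themselves, so its sum is no separate measure of marginal cells. Neuron markers (7 of 7 on the array) also separated the control base replicates, with summed signals of 60740 and 41050 in cKO base, 74370 and 25850 in control base, 57940 and 55340 in cKO apex, and 64230 and 52370 in control apex. Reissner membrane markers (2 of 3 on the array) were at 5394 and 3905 in cKO base, 7551 and 1056 in control base, 6397 and 6171 in cKO apex, and 5459 and 5220 in control apex. The replicate low in strial genes was the one high in both of these lists. Markers of Schwann cells and satellite glia (68690 against 53030) and of skeletal muscle (157.5 against 99.48) were also higher in control base replicate 1 than in replicate 2. The remaining lists of other cell types were lower in it, among them supporting cell (11270 against 24550), spindle and root cell (26970 against 51580) and macrophage markers (4750 against 8020). The amount of stria in each sample is not given in the sources used here, and its part in these differences was not tested.

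**Figure D4:**
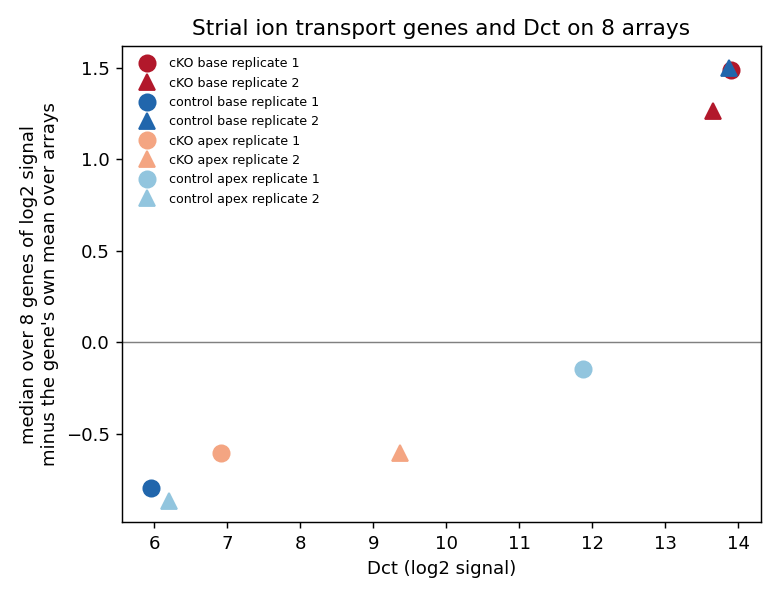
The median over the 8 genes of the log2 signal minus the gene's own mean over the arrays (y axis) against the log2 signal of Dct (x axis), 1 point per array, coloured by group, with replicate 1 as a circle and replicate 2 as a triangle. Both cKO base arrays and control base replicate 2 lie above 1 with Dct at 13.65 to 13.91, and control base replicate 1 lies at -0.80 with Dct at 5.96.

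Among the 8 genes, likeness over the arrays ran from r = -0.04 for Slc12a2 with Kcnj10 to 0.983 for Kcnq1 with Kcne1. Kcnq1, Kcne1, Esrrb, Slc12a2 and Atp1b2 were alike at 0.854 to 0.983 in all 10 of their pairs. Kcnj10 was most like Cldn11 (0.711) and at most 0.387 like any other. Cldn11 in turn lay between both patterns, at 0.77 with Atp1b2 and 0.505 with Slc12a2. The 10 other tested genes whose profile was most like the mean profile of the 7 tested genes were Gm5089, Hmx3, Ctxn3, Palld, Krt7, Tacr3, Tmem231, Wfdc18, Tpd52l1 and Rgs4, at r = 0.974 to 0.988 over 8 arrays. Hmx3 is a homeobox factor of the developing inner ear, Krt7 a keratin of simple epithelia, Tacr3 the neurokinin B receptor, and Rgs4 a regulator of G protein signalling. Krt7 was at 9.38 and 9.32 in cKO base, 4.98 and 10.10 in control base, 5.47 and 5.81 in cKO apex, and 6.80 and 5.26 in control apex. Its low value in control base replicate 1 is what the choice by likeness favours and is no separate observation. Tmem231, a gene of the ciliary transition zone, was in the list with values of only 7.22 to 7.62.

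**Figure D5:**
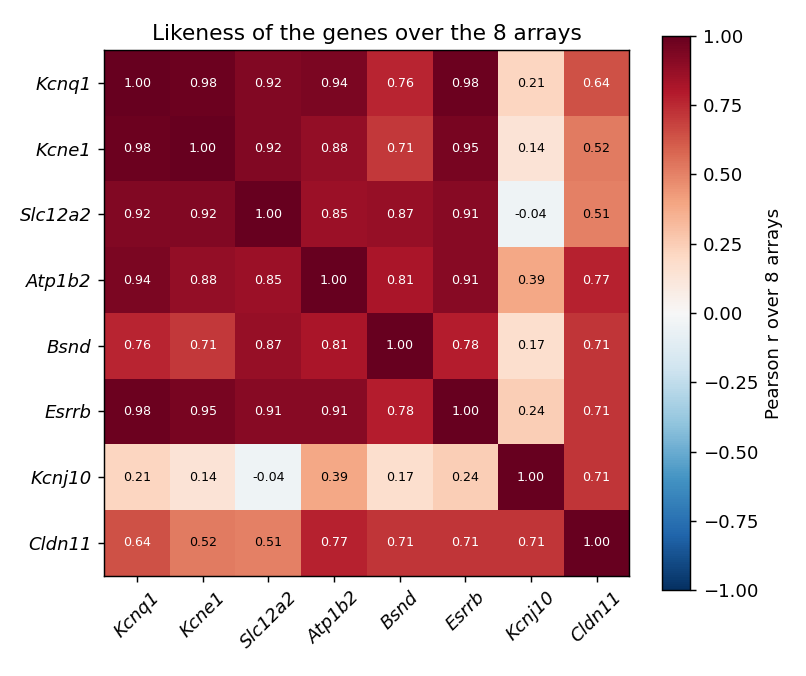
Pearson r between the log2 signals of each pair of the 8 genes over the 8 arrays (rows and columns are genes, colour and number give r). Kcnq1, Kcne1, Slc12a2, Atp1b2 and Esrrb form a block of 0.854 or more, and the Kcnj10 row holds the lowest values.

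Other genes of ion transport, cell junctions and lateral wall transcription, 84 in 7 lists, gave a mixed picture. Of these, 74 were on the array and 64 were tested. Between base and apex over both genotypes 32 were above and 32 below 0, and 1 passed with all arrays: Slc12a4, the potassium-chloride cotransporter KCC1, was higher in base (0.63 ± 0.10, log2, SE, limma adjusted p = 0.0423), at 10.92 and 10.95 in cKO base, 10.92 and 10.98 in control base, 10.25 and 10.40 in cKO apex, and 10.23 and 10.35 in control apex. Its control base replicates were alike, as those of Slc12a2 were and those of the other 7 genes were not. Between genotypes none of the 64 passed in the base or the apex, with medians of 0.09 and 0.10 (limma, 413 and 290 of all genes at an unadjusted p under 0.05).

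In cKO samples fitted alone, which is no second test, 1.93% of all tested genes were higher in base and 1.47% lower. Among the genes described here 5 of 7 were higher, and of the 64, 5 were higher and 0 lower. They were the carbonic anhydrases Car2 (1.19 ± 0.13, adjusted p = 0.00523) and Car12 (2.03 ± 0.30, adjusted p = 0.015), the anion exchanger Slc26a4, or pendrin, of spindle and root cells (1.31 ± 0.13, adjusted p = 0.00458), Hmx3 (2.83 ± 0.35, adjusted p = 0.00786) and the pigment cell factor Mitf (0.95 ± 0.19, adjusted p = 0.0458, all by limma). Car2 was at 14.07 and 13.84 in cKO base, 12.47 and 13.76 in control base, 12.79 and 12.73 in cKO apex, and 12.58 and 12.51 in control apex. Slc26a4 was at 13.09 and 13.11 in cKO base, 12.10 and 13.81 in control base, 11.85 and 11.74 in cKO apex, and 12.25 and 11.52 in control apex. In both, control base replicate 1 was again within or below the apical range. Over both genotypes without that array, 14 of the 64 were higher in base, where 5.32% of all tested genes were, and 6 lower, where 6.16% were. Of the genes described here 6 of 7 were higher.

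By list, in that setting, in which none of the genes named here other than Slc12a4 had passed with all arrays, the sodium pump subunit Atp1b3 (0.43 ± 0.09) and the pump regulator Fxyd6 (0.56 ± 0.12) were the 2 of 7 pump genes called, both higher. Of 17 tight junction genes, the endothelial claudin Cldn5 (0.82 ± 0.14) and Ocln, which encodes occludin (0.73 ± 0.17), were higher and none lower. Of 5 connexins the deafness gene Gjb2 was higher (0.43 ± 0.10). Among chloride channels and cotransporters (8 tested) Slc12a4 was higher, and the endosomal chloride transporter Clcn3 (-0.46 ± 0.11) and the potassium-chloride cotransporter Slc12a7 (-0.67 ± 0.14) were lower. Of 8 potassium channel genes Kcne4 was higher (1.24 ± 0.29) and Kcne2 lower (-1.46 ± 0.29), both accessory subunits that can join KCNQ1. With all arrays Kcne4 gave 0.64 ± 0.51 and Kcne2 -0.74 ± 0.59, and neither passed. Kcne2 was at 7.75 and 7.41 in cKO base, 8.15 and 5.28 in control base, 7.53 and 8.64 in cKO apex, and 7.78 and 7.60 in control apex, so control base replicate 2 alone was low. Of 9 endolymph transport genes, Car2, Car12 and Slc26a4 were higher, and the epithelial sodium channel subunits Scnn1b (-0.91 ± 0.18) and Scnn1g (-0.91 ± 0.24) lower. Of 10 transcription factors, Hmx3, Mitf and the fibrocyte factors Pou3f4 (1.04 ± 0.14) and Tbx18 (0.71 ± 0.16) were higher, and Esrrg, a relative of Esrrb, was lower (-1.19 ± 0.21, log2, SE, against -0.46 ± 0.56 with all arrays). Esrrg was at 11.05 and 10.37 in cKO base, 11.77 and 8.87 in control base, 10.79 and 10.77 in cKO apex, and 11.47 and 10.90 in control apex, so in controls its low basal sample was the one in which Esrrb was high.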

How the data were processed

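The authors deposited linear intensities, 1 for each probe set, scaled so that the mean of each array, trimmed by 2% at both ends, is 500, as the deposited values show. The submitters' processing notes name MAS5 and affy 1.26 with no role or order. Median signals ran from 67.3 to 100, and with 8 arrays their number limits how precise any value is. Of 45101 probe sets, 64 were controls, 34945 had 1 gene in the supplied annotation, 932 several and 9160 none. A gene was read from its probe set of highest mean log2 value. The 40th percentile of mean log2 signal over all probe sets other than controls was 5.274. Genes under it were not tested, which left 13221. Values were log2 transformed with no further normalization. limma 3.58.1 on R 4.3.3 fitted the 4 group means with an intensity trend, and the genotype effect over both regions used 1 mean per presumed mouse. Two-sided p-values were adjusted by Benjamini-Hochberg over all tested genes, with a threshold of 0.05. The steps were tested on simulated data.

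Groups and numbers came from sample titles, and the labels tie a sample to 1 mouse. Deviations from the group mean in same-numbered base and apex samples correlated at r = 0.0683 in cKO and 0.339 in control. The members and the 22 lists (7 of pathways, 15 of cell type markers, 163 of 181 genes on the array) were chosen with earlier results of these data known. By rule the text names the 8 genes with all their probe sets, the 10 genes of most similar profile, up to 4 genes of smallest p from each pathway list and comparison, and Dicer1, Xist and Dct. Tectb, the pigment and bone markers other than Dct, and the pathway genes called when arrays were left out were named after their values were seen. The alternatives were the filter, a pseudocount, quantile normalization, centring, the mean of probe sets, raised low values, the variance model, a replicate block, the compared groups alone, and leaving out each array or control mouse 1. Promoters came from RefSeq on GRCm38.p6. Kcnq1, Kcne1, Slc12a2, Bsnd and Atp1b2 were not matched there.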

Additional observations from a re-analysis of the deposited data

How the results depend on the processing

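With 2 samples a group, no alternative gave a genotype difference for any of the genes past the threshold in either region, except Atp1b2 in the base without control base replicate 2. Between base and apex, calls of these genes came where a control base array, control mouse 1 or all controls left the fit, and for Slc12a2 over both genotypes with the mean of its probe sets (0.824, limma adjusted p = 0.0369). The cause was not tested. No value here separates the amount of stria in a sample from its RNA per cell. The faintest genes, Bsnd and Kcne1, rest on signals near or under the filter.

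Between base and apex in cKO, 11 genes passed with all arrays. The count was 0 with no filter, with quantile normalization, centred on the 75th percentile and with no intensity trend, 6 with the mean of all probe sets, and 449 with the groups compared alone or without control mouse 1. Over both genotypes 157 genes passed, against 98 with the mean of all probe sets, 70 with no intensity trend and 1049 without control mouse 1. With no intensity trend 1 gene passed for the genotype in the apex and 1 in the base, neither of them among the genes described here. The median over the 8 genes for base minus apex in cKO was 2.24, and 1.84 with a pseudocount of 16, 1.94 with the mean of all probe sets and 1.66 with low values raised to the filter signal.

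The replicate block used the presumed mouse for region and the number for genotype. With it 0 genes passed for base minus apex in cKO and 255 over both genotypes, and it changed no call of the 7 tested genes. Across genotypes the samples share only a number.

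Under the scalings and the mean of probe sets, the signs that turned were of values near 0. Leaving out single arrays or control mouse 1 also turned larger estimates, as given below. Slc12a2 in the apex (cKO minus control) was -0.143 with quantile normalization and -0.0724 with the mean of all probe sets, and Esrrb over both regions was -0.0243 with quantile normalization. Centred on the 75th percentile, Kcnj10 for cKO minus control was 0.0128 in the apex, 0.0105 in the base and 0.0117 over both regions, with -0.00235 for the difference between regions. No scaling moved the median of all genes by more than 0.0431 from 0.

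Without control mouse 1, cKO minus control in the apex was 0.214 for Kcnq1 and 2.02 for Kcne1. In the base it was -0.0264 for Kcnq1, -0.398 for Kcne1, -0.718 for Cldn11 and -0.708 for Esrrb, with a median of -0.382 over the 8 genes. Over both regions it was -0.591 for Esrrb. The difference between regions was -0.24 for Kcnq1, -2.42 for Kcne1, -0.213 for Kcnj10, -0.105 for Slc12a2 and -0.233 for Esrrb, with a median of -0.223. In that setting 157 genes passed for base minus apex in control, the median over the 8 genes was 2.3 in control and 2.3 over both genotypes, and Kcnj10 was at 0.136 in control and 0.0294 over both genotypes.

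Leaving out each array in turn gave the following ranges. For cKO minus control in the apex they were -1.32 to 0.214 for Kcnq1, -3.35 to 2.02 for Kcne1, -0.371 to 0.312 for Kcnj10, -0.165 to 0.169 for Slc12a2, -1.01 to 0.116 for Cldn11 and -0.206 to 0.103 for Atp1b2. In the base they were -0.0264 to 3.56 for Kcnq1, -0.398 to 7.21 for Kcne1, -0.585 to 0.529 for Kcnj10, -0.718 to 0.948 for Cldn11, -0.708 to 3.32 for Esrrb and 0.128 to 2.04 for Atp1b2, with a median over the 8 genes of -0.382 to 1.93 and 0 to 37 genes past the threshold. Leaving out control base replicate 1 gave the low end and replicate 2 the high end of each gene's range in the base, and the 37 genes were without replicate 2. Over both regions they were -0.478 to 0.421 for Kcnj10, -0.863 to 0.532 for Cldn11 and -0.591 to 0.641 for Esrrb, with 0 to 9 genes. The difference between regions ran from -0.555 to 0.559 for Kcnj10, -0.273 to 1.39 for Cldn11 and -0.995 to 1.19 for Bsnd, with a median of 0.121 to 1.74.

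For base minus apex in cKO the ranges were 2.45 to 3.68 for Kcnq1, -0.308 to 0.153 for Kcnj10, 3.14 to 4.16 for Esrrb and 1.38 to 1.69 for Atp1b2, with a median of 1.91 to 2.4 and 0 to 316 genes. In control they were -1.04 to 2.54 for Kcnq1, -1.94 to 5.67 for Kcne1, -0.636 to 0.478 for Kcnj10, -0.379 to 1.29 for Cldn11, -0.931 to 3.1 for Esrrb and -0.561 to 1.35 for Atp1b2, with a median of -0.599 to 1.95 and 0 to 551 genes. Over both genotypes they were 1.01 to 2.8 for Kcnq1, 2.00 to 5.8 for Kcne1, -0.357 to 0.2 for Kcnj10, 0.265 to 0.432 for Slc12a2, 0.317 to 1.15 for Cldn11, 1.36 to 3.37 for Esrrb and 0.485 to 1.44 for Atp1b2, with 0 to 1518 genes.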
